A study of Homo sapiens with 5 samples.

Results

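AP-1 is a family of dimeric transcription factors, and its genes were followed here in HLF cells, an established line of human hepatocellular carcinoma cells. The 10 genes examined are JUN, JUNB and JUND of the JUN family, FOS, FOSB, FOSL1 and FOSL2 of the FOS family, and ATF3, ATF2 and BATF3 of the ATF and BATF families. They were chosen by symbol among family genes with rows in the deposited tables, so that the filter on low genes bore on the choice. BATF, for example, had no row in any table. The members are 10 of the 12468 genes that any table listed. The table of USP28-Ctrl and USP28-KO cells listed all 10 among its 11102 genes. The tables of reconstituted cells listed 9 among 12342 genes, and FOS had no row there.

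JUN proteins pair with each other, with FOS proteins or with some ATF and BATF proteins, whereas FOS proteins need a JUN partner. The dimers bind the TGANTCA element and related sites, and act on genes of proliferation, matrix remodelling and stress. Immediate early genes, FOS, FOSB, JUNB and ATF3 among them, have transcripts that appear soon after a growth factor or stress signal and decay fast. JUND is made more steadily. JUN protein is marked for degradation by the ubiquitin ligase SCF(FBW7), with which the deubiquitinase USP28 interacts, and JUN is a reported USP28 substrate.

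Total RNA was sequenced in 5 conditions, with 1 sample listed for each. USP28-Ctrl cells carried the guide RNA sgCtrl, and USP28-KO cells the guide RNA sgUsp28. The other 3 conditions were all made in sgUsp28 cells, which received pRRL-Ctrl as the control vector, pRRL-Usp28-WT for wildtype USP28 (USP28-WT) or pRRL-Usp28-Mono for a monomeric allele (USP28-M). Alleles were brought in by lentiviral transduction. Knockout lines were picked as single clones per the methods, which limits USP28-KO cells as a model, and the number of clones sequenced is not given in the sources used here. Each deposited table gives an average level per gene in log2 CPM (CPM being the reads of a gene as a part of all reads of a library, scaled to a common total) over all libraries of a fit. The fits are that of USP28-Ctrl and USP28-KO cells together, called the knockout pair below, and that of the 3 sgUsp28 conditions with a vector, called the reconstitution. Values of single libraries and of single conditions were not analysed here. An average can thus be carried by 1 condition, no spread between replicates can be given, and no effect of USP28 was tested.

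From the spacing of the lowest averages, 1 read over all libraries was worth 0.130 CPM in the knockout pair, where 96.6% of 1110 low genes lay within 0.1 of a whole number of reads. For the reconstitution it was 0.0328 CPM, a greater depth, with 66.0% of 1234 genes near a whole number, so that it is less certain. USP28 averaged 5.15 log2 CPM in the knockout pair and 9.79 in the reconstitution, the largest difference upwards among the 10976 genes with a row in both fits. Of 6 hepatocyte markers, ALB, APOA1, TTR, HNF4A and AFP had no row in any table, and SERPINA1 had one in the reconstitution alone, at 1.88 log2 CPM. The keratin genes KRT8 and KRT18 and all 4 mesenchymal markers, VIM, FN1, CDH2 and ZEB1, were listed in both fits, and EPCAM and CDH1 were not. The leukocyte marker PTPRC and the endothelial markers PECAM1 and VWF had no row, while CD68, which is also a lysosomal protein of other cells, averaged 6.86 and 7.73 log2 CPM. Of 3 fibroblast markers, COL1A1 and PDGFRB were listed in both fits and DCN was not.

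The sequences before the start sites of JUN, JUNB, FOS and FOSB are shown because JUN is the USP28 substrate of the family, FOSB and JUNB had the lowest differences between the fits among the members with a row in both, and FOS had a row in the knockout pair alone. Each line gives the 250 bases upstream of the start, 5′ to 3′ on the strand of the gene, from RefSeq on GRCh38.p14. They lie at chr1:58784048-58784297 (minus strand) for JUN, chr19:12791236-12791485 (plus strand) for JUNB, chr14:75278578-75278827 (plus strand) for FOS and chr19:45467746-45467995 (plus strand) for FOSB. Capitals mark matches to TGACGT, the core of the cAMP response element, and to TGACATCA, a variant of the AP-1 element, and the JUNB window holds neither.
JUN: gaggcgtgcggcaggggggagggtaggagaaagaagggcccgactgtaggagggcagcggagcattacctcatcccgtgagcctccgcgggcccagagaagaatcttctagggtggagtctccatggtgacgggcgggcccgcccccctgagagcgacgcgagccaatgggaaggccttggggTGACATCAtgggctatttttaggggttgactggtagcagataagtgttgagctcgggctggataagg
JUNB: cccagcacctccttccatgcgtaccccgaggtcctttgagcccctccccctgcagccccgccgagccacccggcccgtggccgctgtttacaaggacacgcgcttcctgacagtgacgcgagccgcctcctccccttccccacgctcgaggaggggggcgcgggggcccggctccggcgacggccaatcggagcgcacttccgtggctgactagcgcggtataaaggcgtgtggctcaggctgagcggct
FOS: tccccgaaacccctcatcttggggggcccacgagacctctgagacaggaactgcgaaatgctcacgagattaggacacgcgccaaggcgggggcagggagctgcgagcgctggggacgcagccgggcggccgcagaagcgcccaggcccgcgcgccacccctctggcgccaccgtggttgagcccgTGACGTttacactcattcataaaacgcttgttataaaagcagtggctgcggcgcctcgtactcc
FOSB: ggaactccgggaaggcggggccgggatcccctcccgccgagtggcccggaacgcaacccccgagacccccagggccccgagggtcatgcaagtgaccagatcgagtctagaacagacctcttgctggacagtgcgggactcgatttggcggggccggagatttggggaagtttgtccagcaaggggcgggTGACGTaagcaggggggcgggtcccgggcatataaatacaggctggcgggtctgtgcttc
Start sites were found for 7 of the 10 genes, and FOSL1, ATF2 and BATF3 had none in the reference used. Members are counted by gene below, ATF3 having 2 windows, whereas the shares are of all windows. On either strand, TGACGT was found before FOS, FOSB, FOSL2 and JUND, 4 of the 7 genes. It was found in 7.10% of all 35116 windows of the same length. It began 64 bases before the start of FOS, 60 before that of FOSB and 66 before that of FOSL2. The TATA box was searched for only as the exact string TATAAA, found on either strand in 10.7% of all windows. It began 33 bases before the start of FOS, 30 before that of FOSB and 31 before that of JUNB. The JUN, JUND and FOSL2 windows lacked this string, but the JUND window, not printed here, holds the near match TATAAG. At 1 of the 2 starts of ATF3 TATAAA began 230 bases away. TGACATCA was found before JUN and at 1 of the 2 starts of ATF3, and in 2.38% of all windows. The full element TGACGTCA, which contains TGACGT on both strands, was found before JUND and in 1.65% of all windows. TGANTCA was found before 0 of the 7 genes, against 6.57% of all windows. The CArG box of serum response factor was also found before 0 of them in these 250 bases, against 1.16% of all windows. Bases further upstream were not searched. The window of EGR1, an immediate early gene outside the family, held 2 CArG boxes. The motif TGACGT and the TATA box were searched for after these sequences had been seen, and a match is no evidence of binding.

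FOSL1, which encodes the FOS family protein FRA1, led the family in both fits. Its average was 702 CPM in the knockout pair and 470 CPM in the reconstitution. JUN was second, with 299 and 207 CPM. To set genes side by side, averages were divided by the length of the longest GENCODE transcript. FOSL1 then had 420 CPM per kb in the knockout pair, 4.99 times the 84.3 CPM per kb of JUN. In the reconstitution it had 282 CPM per kb, 4.82 times the 58.4 CPM per kb of JUN. On this scale FOSL1 exceeded 99.1% of the genes with a known length in the knockout pair and 98.6% in the reconstitution, and JUN exceeded 93.1% and 90.7%. With the median in place of the longest transcript length FOSL1 was still first, but FOS (116 CPM per kb) was second in the knockout pair and JUND (87.4 CPM per kb) in the reconstitution.

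**Figure D1:**
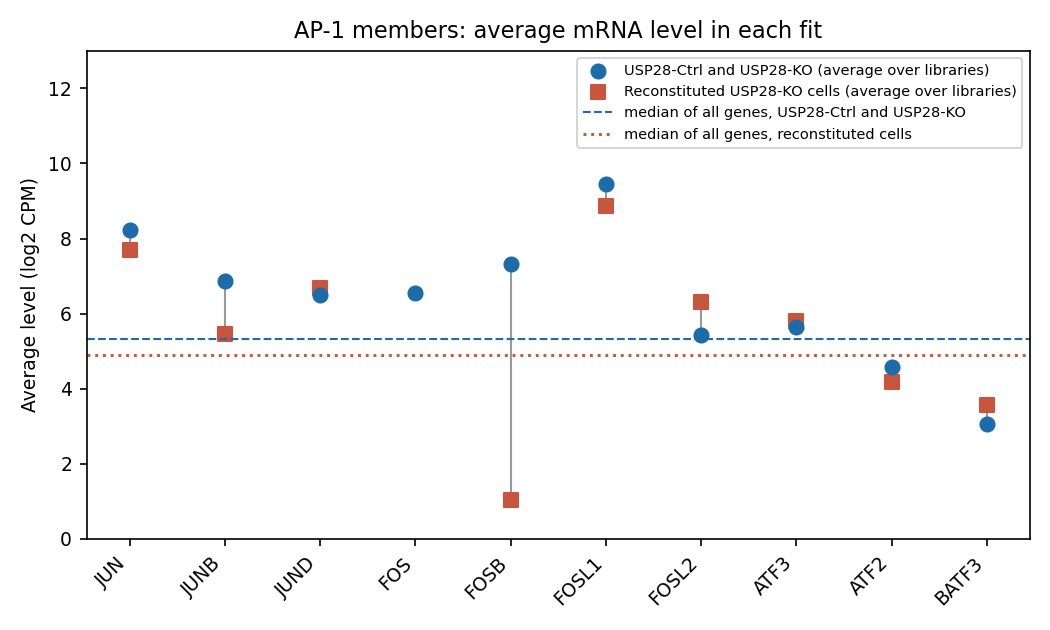
Average mRNA level (log2 CPM, y axis) of the 10 AP-1 genes (x axis), with circles for the fit of USP28-Ctrl and USP28-KO cells, squares for that of reconstituted USP28-KO cells and grey lines joining the same gene. Horizontal lines are the medians over all genes, 5.33 (dashed) and 4.90 (dotted); FOSL1 and JUN lie highest in both fits, FOSB lies at 7.32 and 1.03, and FOS has a circle only.

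The rest of the JUN family was lower than JUN per kb. JUNB, a JUN relative that often weakens the activity of JUN, had 63.8 CPM per kb in the knockout pair and 24.2 in the reconstitution. JUND had 48.3 and 55.4 CPM per kb. In the reconstitution JUND lay so close to JUN that their counting intervals overlapped, whereas JUN, JUNB and JUND were apart by counting error in the knockout pair. These intervals, 95% exact Poisson intervals on the estimated reads, cover counting error only and not the spread between libraries. JUN rested on about 2295 reads in the knockout pair (interval 2202 to 2391) and about 6300 in the reconstitution (6145 to 6458).

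Of the other FOS family genes, FOS had 43.7 and FOSB 42.4 CPM per kb in the knockout pair, and the intervals of JUND and FOS and of FOS and FOSB overlapped. FOSL2, which encodes FRA2, had 6.38 CPM per kb in the knockout pair and 11.8 in the reconstitution. FOSL1 made up 82.0% of the summed CPM per kb of the 4 FOS family genes in the knockout pair and 95.8% of that of the 3 genes listed in the reconstitution. The FOS family held 69.1% of the sum over all members in the knockout pair and 62.8% in the reconstitution, and the JUN family 26.5% and 29.5%. FOSL1 mRNA was therefore above the sum of the 3 JUN family mRNAs, which was 196 CPM per kb in the knockout pair and 138 in the reconstitution.

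The 3 ATF and BATF members had the lowest sum of the 3 groups, 33.1 CPM per kb in the knockout pair and 35.9 in the reconstitution. ATF genes outside the 10 members were left out of this sum, and ATF4 alone had 196 and 267 CPM per kb. The order of the groups thus holds for the members only. Gene by gene the groups overlapped, with ATF3 above FOSL2 in both fits and above FOSB in the reconstitution. ATF3, a stress-induced factor that often represses, had 23.9 and 26.5 CPM per kb. ATF2, a partner of JUN that is activated by JNK and p38 kinases, had 5.67 and 4.34. BATF3, better known from dendritic cells, had 3.53 and 5.03 CPM per kb. In the knockout pair 7 of the 10 members lay above the median of all genes on this scale (11.1 CPM per kb), and FOSL2, ATF2 and BATF3 below it. In the reconstitution 6 of 9 lay above the median (8.44 CPM per kb), with FOSL2 now among them and FOSB below. Without division by length these counts were 8 of 10 and 6 of 9. FOSL2 and ATF2 had overlapping counting intervals in the knockout pair, as did ATF3 and JUNB, and BATF3 and ATF2, in the reconstitution.

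**Figure D2:**
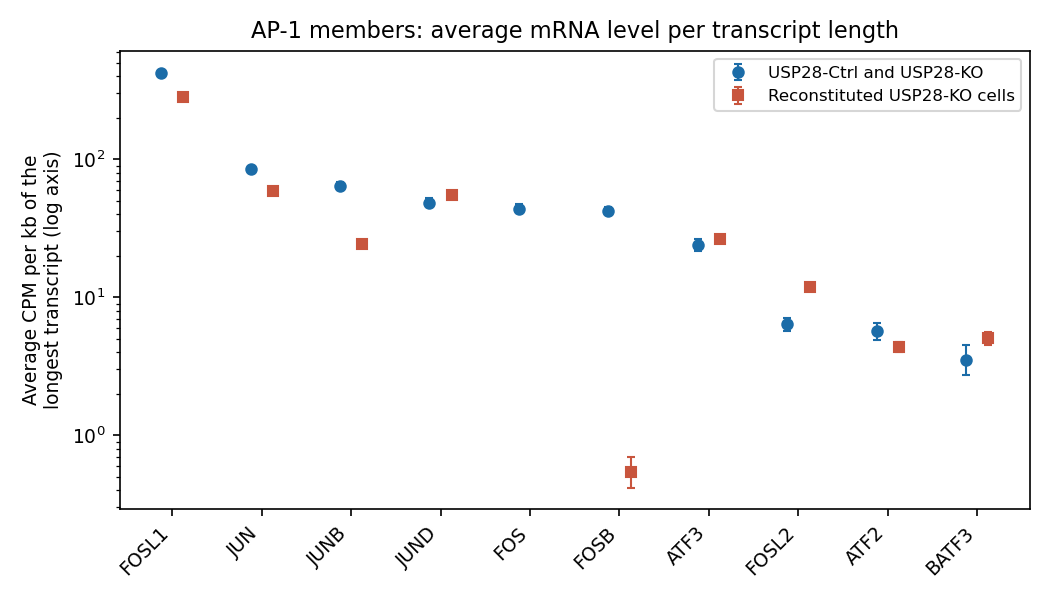
Average CPM per kb of the longest transcript (y axis, log scale) of the AP-1 genes, ordered by the knockout pair (x axis), with circles for USP28-Ctrl and USP28-KO cells and squares for reconstituted cells. Error bars are 95% Poisson intervals of the estimated reads and cover counting error only; FOSL1 lies 4.99 times above JUN in the knockout pair, and FOSB is lowest in the reconstitution at 0.540 CPM per kb.

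The averages of both fits were then set side by side gene by gene. The fits were normalized separately and share no condition. They differ in transduction, in the level of USP28 and in depth, and these cannot be told apart in a difference between their averages. Over the 10976 genes with a row in both fits, the median difference (reconstitution minus knockout pair) was -0.12 on the log2 scale, and the central 50% of genes lay between -0.50 and 0.20. The reconstitution average was lower by 2-fold or more for 990 genes (9.02%) and higher by 2-fold or more for 167 genes (1.52%). Of the 9 AP-1 genes with both values, FOSB and JUNB were lower by 2-fold or more, and 0 were higher by as much. By any amount, 5 of the 9 were lower and 4 higher, against 59.9% and 40.1% of all genes. Their median difference was -0.39.

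FOSB, an immediate early partner of JUN, had the lowest difference of all 10976 genes. Its average was 160 CPM in the knockout pair and 2.04 CPM in the reconstitution, a difference of -6.30 on the log2 scale. About 1231 reads stood behind the former value and about 62 (interval 48 to 79) behind the latter. In its position among the listed genes, FOSB went from above 84.8% of genes per kb to above 2.04%.

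FOS averaged 94.4 CPM in the knockout pair, 6.56 on the log2 scale, from about 726 reads (interval 674 to 781). It had the highest average of the 126 genes that were listed in the knockout pair and not in the reconstitution, where the next highest was at 5.89 log2 CPM. Each of the other 2498 genes with an average at least as high in the knockout pair had a row in the reconstitution. The lowest average listed there was 0.40 log2 CPM. The filter on low genes is not given in the sources used here, so no level and no fold difference of FOS was derived for the reconstitution.

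JUNB averaged 116 CPM in the knockout pair and 44.1 CPM in the reconstitution. The difference was -1.40, and 3.36% of the genes had a lower one. JUN differed by -0.53 and FOSL1 by -0.58, both just below the central 50% of genes. JUND and ATF3 differed by 0.20 and 0.15, and ATF2 by -0.39, all within or at the edge of the central 50%. FOSL2 went the other way, from 42.8 to 78.9 CPM. Its difference of 0.88 was exceeded by 2.37% of the genes, and that of BATF3, 0.51, by 9.10%. With quantile mapping between the fits the difference of BATF3 was 0.94.

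**Figure D3:**
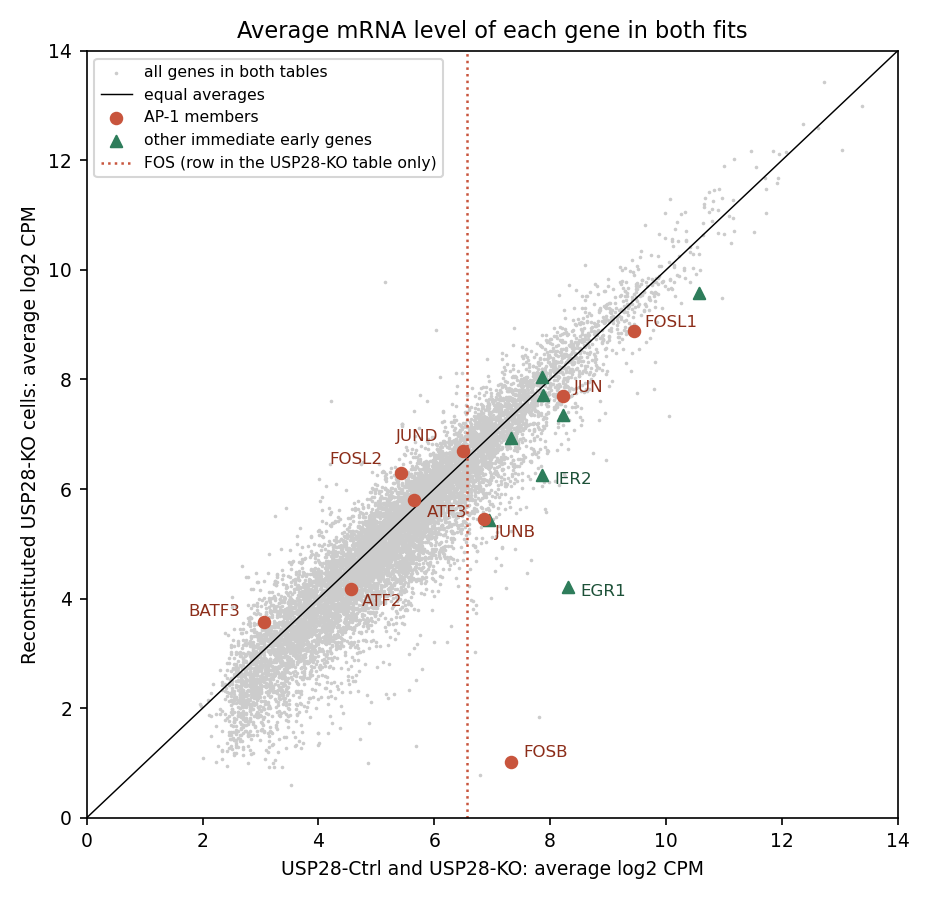
Average log2 CPM of each gene in USP28-Ctrl and USP28-KO cells (x axis) and in reconstituted USP28-KO cells (y axis), with grey dots for the 10976 genes in both tables, circles for AP-1 genes and triangles for other immediate early genes. The diagonal marks equal averages and the dotted line the level of FOS, 6.56, in the knockout pair; FOSB and EGR1 lie far below the cloud, and FOSL1 and JUN lie within it.

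Differences between the fits followed the base composition of the longest transcript of a gene. Across 10684 genes, Spearman's rho was 0.48 with its GC content and -0.011 with its length, where genes are not independent replicates. The longest FOSB transcript holds 57.7% G and C and the longest JUNB transcript 64.9%. Set against genes of like GC content and length, the difference of FOSB was -6.41 and that of JUNB -1.42. ATF2, with 36.9% G and C in its longest transcript, changed sign in this way, from -0.39 to 0.46, and FOSL2 was then at 0.60.

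Other immediate early genes were examined as a list of 11. Of these, 8 had rows in both fits, and EGR2, EGR3 and NR4A1 had none. EGR1, a zinc finger factor induced with FOS, averaged 317 CPM in the knockout pair and 18.5 CPM in the reconstitution. Its difference of -4.10 was the fifth lowest of all genes. IER2 (-1.60, named after its value was seen) and ZFP36 (-1.50), which encodes a protein that destabilizes mRNAs, were also lower by 2-fold or more, so that 3 of 8 were, beside 9.02% of all genes. The list was not uniform. CCN1, a secreted matrix protein with the highest level of the list, differed by -0.99, and DUSP1 (-0.16) and IER3 (0.18), named after their values were seen, lay within the central 50% of genes. The median of the 8 genes was -0.93. SRF, the serum response factor, differed by -0.39.

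**Figure D4:**
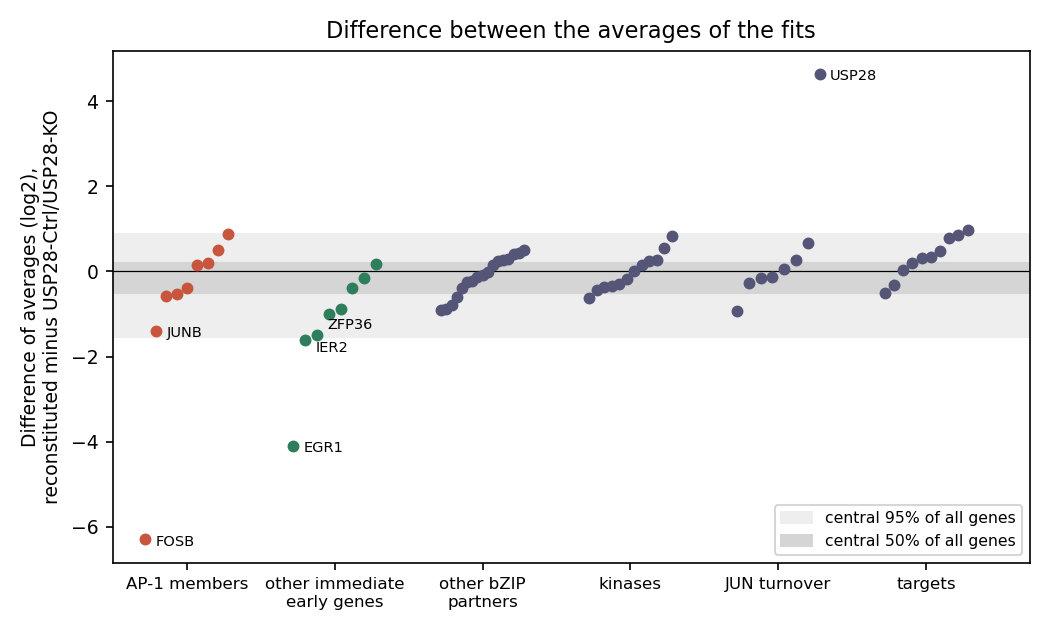
Difference of average log2 CPM, reconstituted cells minus USP28-Ctrl and USP28-KO cells (y axis), for the genes of 6 lists (x axis), each point 1 gene in order of its value; points at a 2-fold difference or more are named. The dark band holds the central 50% of all genes and the light band the central 95%, -1.54 to 0.87; FOSB (-6.30), EGR1 (-4.10) and IER2 (-1.60) lie below the light band, and FOSL2 (0.88), IL6 (0.97) and USP28 (4.64) lie above it.

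Of 25 other bZIP partners, 17 had rows in both fits. Of these, 0 differed by 2-fold or more in either direction, beside 9.02% of all genes lower and 1.52% higher by as much, shares at which few genes of so short a list would do so. ATF4 and NFE2L1 had the highest averages in the knockout pair, 8.63 and 8.43 log2 CPM, and CREM the lowest listed, 4.19. The median difference of this list was -0.078. Of 13 kinases upstream of AP-1, 12 had rows in both fits, and 0 differed by 2-fold or more, beside the same shares of all genes. GSK3B, the gene of a kinase that phosphorylates JUN, averaged 6.18 log2 CPM in the knockout pair, and MAP3K1 was lowest of the listed kinases with 3.66. MAPK8, the gene of the JUN kinase JNK1, averaged 3.69 and 3.32 log2 CPM.

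Among 8 genes of JUN turnover, FBXW7, the gene of the substrate receptor FBW7, averaged 4.32 log2 CPM in the knockout pair and 4.06 in the reconstitution. DDB1 (8.26) and CUL4A (6.63) were highest in the knockout pair and DET1 (2.42) lowest. Apart from USP28 itself, 0 of these genes differed by 2-fold or more, beside 9.02% of all genes lower and 1.52% higher, but DET1 was higher by 1.39 on the log2 scale with quantile mapping. Of 13 AP-1 target genes, 10 had rows in both fits, 2 lower and 8 higher in the reconstitution, against 59.9% and 40.1% of all genes. At the deposited scaling 0 of them differed by 2-fold or more, beside 9.02% of all genes lower and 1.52% higher. IL6, a cytokine gene named after its value was seen, differed by 0.97 and passed 2-fold upwards under each of the 4 alternative scalings, with 1.10 to 1.28. HMOX1, also named after its value was seen, passed with quantile mapping (1.07), and CXCL8 against genes of like GC content and length (1.10). The shares of all genes that passed 2-fold under these alternative scalings are not given here. MMP1, an interstitial collagenase, averaged 10.74 and 11.06 log2 CPM, and CD44, a hyaluronan receptor, 10.22 and 10.25. CXCL8, a neutrophil chemokine, was the lowest listed target in the knockout pair, with 3.05 and 3.54 log2 CPM. The median difference of the targets was 0.33, with a range from -0.50 to 0.97. RNA levels do not measure AP-1 protein, its phosphorylation or its stability.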

How the data were processed

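Total RNA of HLF cells in 5 conditions was sequenced. Per the submitters' processing notes, the tools were bcl2fastq 2.20, STAR 2.5.4 and edgeR 3.26.8, with the build hg19. Counting, low-gene filter and libraries per condition are not given in the sources used here. The 3 deposited tables hold NCBI gene IDs, symbols, an average log2 CPM over all libraries of a fit, and the comparisons of the authors (log2 fold changes, p-values and, in 2 tables, F), which were not used. The header of the USP28-KO table is shifted by 1 field. Both reconstitution tables hold the same averages. 0 columns held values of a single sample.

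Levels were ranked, divided by GENCODE release 29 transcript length (97.1% and 95.9% of genes) and subtracted between fits, without a test. Estimated reads are CPM divided by the step of 1 read among the lowest 10% of genes, edgeR's prior count of the authors included, and intervals cover counting error only. Scripts were tested on simulated data. No coordinates of hg19 were used. Members, lists and the rule for named genes (in each list the 2 highest and the lowest in the knockout pair, with MAPK8, FBXW7 and USP28; 1 gene so named is not reported here) were chosen with earlier results of these data known. The difference between fits and its alternatives were added after seeing the data. Computations used scipy 1.17.1 and pandas 2.3.3 under Python 3.11.15, and plots matplotlib 3.10.9.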

Additional observations from a re-analysis of the deposited data

How the results depend on the processing

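FOSB and JUNB were lower by 2-fold or more in the reconstitution under all 4 alternatives, which were chosen after seeing the data. Among the other lists, 0 bZIP partners and 0 kinases passed 2-fold in either direction. At most 2 target genes passed it upwards, as did at most 2 JUN turnover genes, USP28 itself and, with quantile mapping, DET1. Downwards, 3 or 4 other immediate early genes passed it (the fourth being CCN1). FOSL2 passed a 2-fold difference upwards, so that 1 member did, with the median difference set to 0 and with quantile mapping. The shares of all genes past 2-fold, 9.02% lower and 1.52% higher, hold for the deposited scaling only. They are not given for the 4 alternatives, so the counts under these cannot be set against all genes. The median share of listed genes below a member was 76.8% in the knockout pair and 67.8% in the reconstitution. Among genes of both tables it was 75.5% and 63.4%, among genes with at least 3 log2 CPM 75.1% and 65.9%, and per kb 85.1% and 76.4%. The counts of members above the median stayed within 1.5 times. Of the ranks per kb given above, coding length in place of transcript length left 3 of 10 members at their rank in the knockout pair and 5 of 9 in the reconstitution. The median transcript length left 5 of 10 at their rank in the knockout pair, and no length scaling left 4 of 9 in the reconstitution. FOSL1 was first under each of these scales, and JUN was second except with the median transcript length. Finding the step of 1 read from the lowest 5% of genes, or with an offset, left the estimated reads of each member within its counting interval. The causes of these shifts were not tested. Leaving out replicates was not possible because the tables hold averages. No paired analysis was possible because the labels give 1 sample per condition. BATF3 rests on about 64 reads in the knockout pair and FOSB on about 62 in the reconstitution, which limits both values.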
